A study of Rattus norvegicus with 24 samples.

Results

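Genes of the circadian clock and genes that the clock drives were followed in colonic epithelial cells of adult rats. Of 10 genes listed (Bmal1, formerly Arntl; Nfil3; Per1; Per2; Nr1d1; Nr1d2; Dbp; Tef; Usp2; Klf9), 9 were matched by gene symbol in the array's annotation, each by 1 probe, among 13337 genes that probes name by a single symbol. Nr1d2 was not analysed here. The list was chosen from earlier results of these group comparisons, so the differences between groups given here are a description of the 9 genes, and adjusted p-values only place a probe among all 10193 probes tested. Measures that the choice did not use, the deviations of samples within their groups, were tested.

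All groups consisted of Sprague Dawley rats aged 8 months. CND rats were born as controls and fed chow, called normal diet in the labels, and CHFD rats were born as controls and fed high-fat diet. RND rats were born with intra-uterine growth retardation (IUGR, poor growth before birth) and fed chow, and RHFD rats were born with IUGR and fed high-fat diet. How the growth retardation was brought about, the sex of the rats, the length of feeding and the time of day of tissue collection were not given in the sources used here, and the part of collection time in any value below was not tested. The cells were shaken free from proximal and distal colon with calcium chelators, which releases epithelium without selecting a cell type by a marker. There were 24 arrays, 6 in each group, on 2 chips with 3 arrays of every group on each. Arrays whose titles share a number were counted as 1 sample, which left 6 CND, 5 CHFD, 6 RND and 3 RHFD samples. Every RHFD sample and 1 CHFD sample (10B) had an array on each chip. Values of chip 1 alone and chip 2 alone therefore share these samples and are not independent. The labels do not say whether a title number stands for 1 animal, so p-values measure the spread between these samples. Titles also carry a letter, A for all chip 1 samples of CND and B for all of its chip 2 samples, so that within CND the effects of letter and chip cannot be told apart.

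The mammalian clock is a transcription loop. BMAL1, paired with CLOCK or NPAS2, switches on the Per and Cry genes and Nr1d1 through E-boxes, and PER and CRY proteins then hold BMAL1 and CLOCK back. NR1D1 (REV-ERB alpha) represses Bmal1 through ROR response elements (ROREs). DBP and TEF, activators of the PAR bZIP family, and their repressor NFIL3 (E4BP4) act on shared D-boxes and pass the rhythm on to output genes. The colonic epithelium carries its own clock, which feeding times can set.

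Promoter windows were searched for the letters of the sites named above, and those with a match are shown. Windows from 250 bases before to 50 bases after the start of each gene were taken from RefSeq (GRCr8) for all 9 genes, 10 windows in all, and searched on both strands for the E-box CACGTG, its variant the E'-box CACGTT, the D-box TTATGTAA or TTACGTAA, and the RORE core TAGGTCA or TGGGTCA. No pair of these motifs overlapped in the windows printed. The 5 windows that hold a match belong to 4 genes and are printed 5′ to 3′ on the gene's strand, with the matches in capitals. They lie at chr9:99496944-99497243 (minus strand) for Per2, at chr10:84231763-84232062 and chr10:84229405-84229704 (both minus strand) for Nr1d1, at chr7:115206577-115206876 (plus strand) for Tef and at chr1:176766078-176766377 (plus strand) for Bmal1.
Per2: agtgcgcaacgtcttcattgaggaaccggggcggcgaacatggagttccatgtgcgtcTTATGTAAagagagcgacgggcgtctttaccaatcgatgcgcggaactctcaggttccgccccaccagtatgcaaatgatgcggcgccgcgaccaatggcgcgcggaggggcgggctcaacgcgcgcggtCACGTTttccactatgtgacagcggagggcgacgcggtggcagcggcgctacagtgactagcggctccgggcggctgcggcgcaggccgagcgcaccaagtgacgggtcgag
Nr1d1, first window: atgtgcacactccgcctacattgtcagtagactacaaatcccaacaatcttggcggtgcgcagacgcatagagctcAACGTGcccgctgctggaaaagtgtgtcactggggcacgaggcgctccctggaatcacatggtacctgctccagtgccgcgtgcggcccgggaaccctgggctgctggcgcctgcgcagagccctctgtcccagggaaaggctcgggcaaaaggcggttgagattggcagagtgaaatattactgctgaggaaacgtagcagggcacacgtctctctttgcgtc
Nr1d1, other window: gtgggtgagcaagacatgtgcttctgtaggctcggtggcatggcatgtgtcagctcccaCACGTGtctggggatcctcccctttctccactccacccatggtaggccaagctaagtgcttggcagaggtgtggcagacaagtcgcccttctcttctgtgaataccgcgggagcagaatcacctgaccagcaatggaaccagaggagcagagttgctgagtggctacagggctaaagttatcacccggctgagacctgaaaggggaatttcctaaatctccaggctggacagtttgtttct
Tef: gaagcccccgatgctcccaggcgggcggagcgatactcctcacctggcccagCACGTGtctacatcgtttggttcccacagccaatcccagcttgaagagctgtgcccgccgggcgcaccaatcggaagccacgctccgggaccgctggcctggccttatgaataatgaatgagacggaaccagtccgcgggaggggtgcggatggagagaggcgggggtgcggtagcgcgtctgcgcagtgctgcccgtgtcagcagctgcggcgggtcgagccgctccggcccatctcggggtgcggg
Bmal1: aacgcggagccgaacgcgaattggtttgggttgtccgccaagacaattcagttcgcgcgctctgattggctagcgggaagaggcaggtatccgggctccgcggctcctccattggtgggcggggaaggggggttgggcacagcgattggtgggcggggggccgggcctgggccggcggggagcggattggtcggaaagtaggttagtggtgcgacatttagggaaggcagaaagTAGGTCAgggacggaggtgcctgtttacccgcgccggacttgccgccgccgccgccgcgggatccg

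The Per2 window holds a D-box that begins 192 bases before the start of the gene and an E'-box that begins 62 bases before it. In Nr1d1, 1 window has an E'-box on the opposite strand at 174 bases before the start, and the other an E-box at 191 bases. The Tef window has an E-box at 198 bases before the start, and the Bmal1 window a RORE core at 16 bases. Over all 33469 RefSeq windows of this length, 6.42% hold the E-box, 4.83% the E'-box, 1.01% either D-box, 6.6% either RORE core and 17.7% at least 1 of them. The windows of the other 5 genes (Nfil3, Dbp, Per1, Usp2 and Klf9) hold none of these letters, which says nothing about sites elsewhere. A match is a stretch of letters and was not measured as a bound site here.

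The tissue label was checked against marker genes. The 6 epithelial markers tested were bright on average, with a mean log2 level per sample of 12.58 to 13.48. On the array, 0 of 3 smooth muscle, 0 of 5 stromal and endothelial and 0 of 3 glial and neuronal markers passed the detection filter. Markers of immune cells were present and moved with diet. The mean log2 level of 9 T and natural killer cell markers had a median of 5.35 in CND (4.94 to 5.88) and 6.77 in CHFD (6.22 to 8.43), and of 5.95 in RND (5.25 to 7.01) and 7.18 in RHFD (6.90 to 7.45). For 6 macrophage and dendritic cell markers the medians were 6.59 in CND (5.99 to 7.25), 8.01 in CHFD (7.63 to 8.21), 7.38 in RND (6.48 to 7.82) and 8.68 in RHFD (7.90 to 8.78). With the diet averaged over birth status, 9 of 9 T and natural killer cell markers and 6 of 6 macrophage and dendritic cell markers rose, against 0 of 6 epithelial markers. The 2 B and plasma cell markers tested did not pass in any of the 7 comparisons. In RNA of mixed cells, fewer cells of a type and less RNA per cell cannot be told apart.

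All 9 probes passed the filter (detection p under 0.05 on at least 6 arrays), and 8 were detected on 24 of 24 arrays, Tef on 22. The probes differed in brightness. Klf9, Per2 and Nr1d1 had median intensities of 739.5, 585.5 and 541.5, Nfil3, Per1 and Usp2 of 289, 220.5 and 157.5, and Bmal1, Tef and Dbp of 134, 119 and 117, where the median of all probes on an array was 92 to 112. The dim probes also had the largest differences between arrays of 1 sample. Between the 2 arrays that share a title number (4 such pairs), Bmal1 differed by up to 0.74 on the log2 scale, Dbp by up to 0.55 and Tef by up to 0.51, against at most 0.37 for Per2, 0.28 for Per1, 0.21 for Usp2, 0.18 for Nr1d1 and Nfil3 and 0.12 for Klf9. Each pair spans both chips, so these sizes include any difference between the chips. Chip 2 minus chip 1 ran from -0.55 to -0.18 for Dbp, from -0.51 to -0.01 for Tef and from -0.74 to 0.30 for Bmal1.

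**Figure D1:**
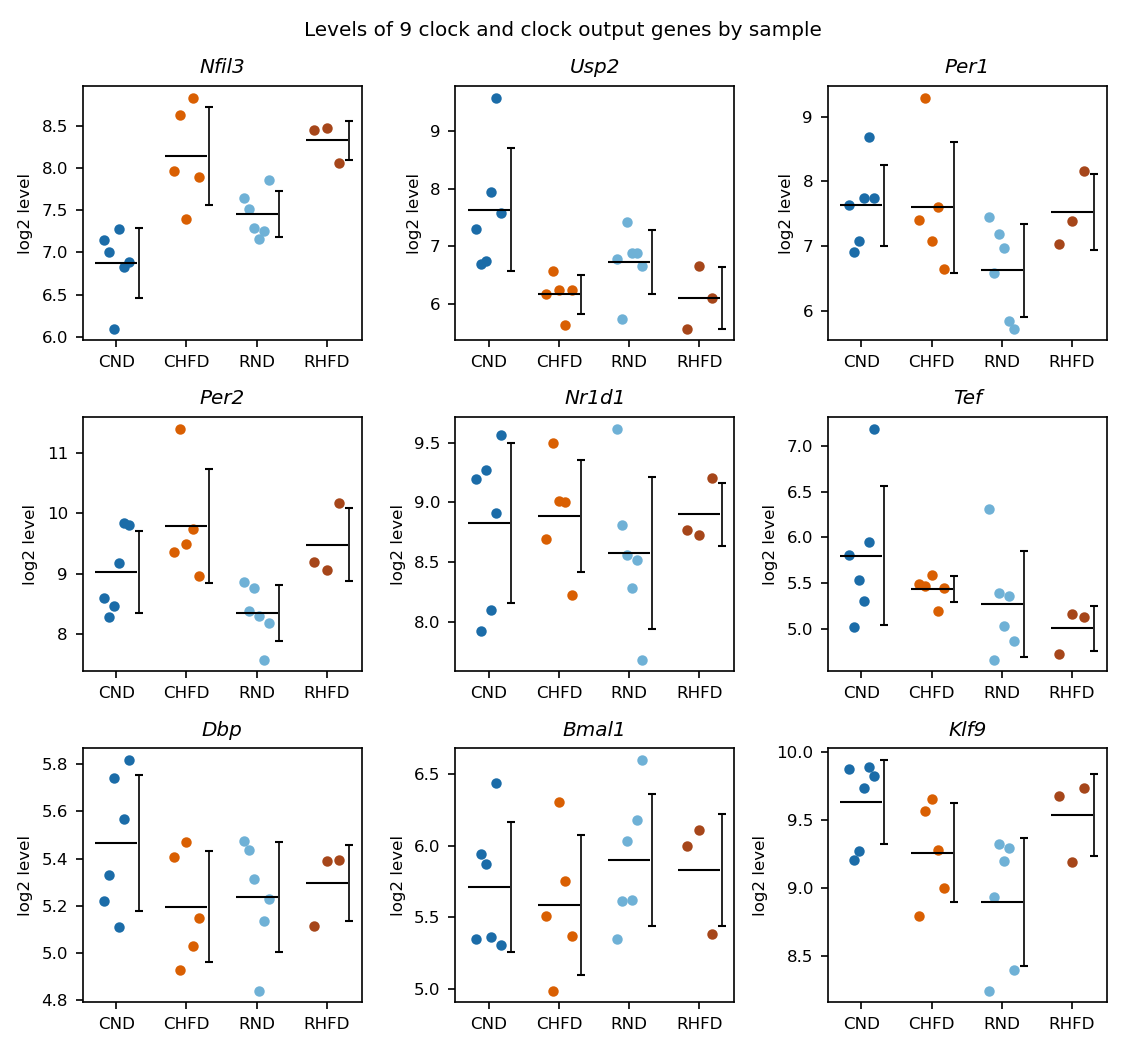
Log2 level of each of the 9 genes (vertical axes, normalized log2 intensity) in every sample of CND (n = 6), CHFD (n = 5), RND (n = 6) and RHFD (n = 3); points are samples, horizontal lines are group means and the bars beside them 1 SD. Every CHFD sample lies above every CND sample for Nfil3 and below every CND sample for Usp2, while the groups overlap for Bmal1, Dbp and Nr1d1.

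High-fat diet in control-born rats went with more Nfil3 and less Usp2. Nfil3 was 2.41-fold higher in CHFD than in CND and Usp2, a deubiquitinase whose transcript is a strong clock output in many tissues, was 2.78-fold lower. These were 2 of 9 genes past an adjusted p of 0.05 (limma, Benjamini-Hochberg over all probes), where 1.3% of all probes passed. The remaining 7 did not pass, and their log2 differences lay between -0.38 and 0.75. The median size of the log2 difference was 0.36 over the 9 genes and 0.14 over all probes. Since this comparison helped to choose the genes, nothing is read from these shares.

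Nfil3, the repressor at D-boxes, had log2 levels in CND from 6.10 to 7.28 with a median of 6.95. In CHFD it stood at 7.96 (sample 10B), 8.63 (4A), 7.39 (22B), 8.83 (28B) and 7.90 (8B). Every CHFD sample was above every CND sample, and 174 of all probes (1.71%) separated these groups without overlap in either direction. The means were 6.87 ± 0.41 (SD, n = 6) in CND and 8.14 ± 0.59 (SD, n = 5) in CHFD, and the fitted log2 difference was 1.27 (SE 0.22, 95% confidence interval 0.82 to 1.72, limma adjusted p = 0.00246). On chip 1 alone the difference was 1.51 (limma adjusted p = 0.028) and on chip 2 alone 0.97 (limma adjusted p = 0.462). With arrays scaled to equal medians in place of quantiles it was 1.09 (limma adjusted p = 0.0614).

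In IUGR-born rats Nfil3 ran from 7.16 to 7.86 in RND, with a median of 7.40, and stood at 8.45 (21B), 8.47 (25B) and 8.06 (3A) in RHFD. All RHFD samples were above all RND samples, and 5.99% of all probes separated these groups in either direction. The means were 7.45 ± 0.27 (SD, n = 6) and 8.33 ± 0.23 (SD, n = 3), a log2 difference of 0.87 (SE 0.25, 95% confidence interval 0.36 to 1.38) that did not pass over all probes (limma adjusted p = 0.103). The value was 0.89 on chip 1 and 0.86 on chip 2, where the RHFD samples are the same on both chips. The order of the group means was CND, RND, CHFD, RHFD, and each neighbouring pair in that order overlapped in range.

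Averaged over birth status, the diet difference of Nfil3 was 1.07 on the log2 scale (SE 0.17, limma adjusted p = 0.000229), or 2.10-fold. Here 3 of 9 genes passed, Nfil3 and Per2 higher and Usp2 lower, where 4.28% of all probes did. This average uses the same samples as both single comparisons. Nfil3 is also expressed in lymphocytes and natural killer cells, whose markers rose with the diet as given above. The part of these cells in the diet difference of Nfil3 was not tested. Within groups the level of Nfil3 and the mean of those markers had a Pearson's r of -0.08 and a Spearman's rho of -0.09 over 20 samples (permutation p = 0.806 and 0.751, adjusted over 45 relations 0.955 and 0.867). Without the 2 samples farthest out in the marker mean r was 0.16.

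Usp2 in CND ran from 6.69 to 9.59, with a median of 7.43. In CHFD it was 6.16 (10B), 6.57 (4A), 6.23 (22B), 5.62 (28B) and 6.23 (8B). The groups did not overlap, although the lowest CND sample stood only just above the highest CHFD sample, and CND held the widest spread of any group. The means were 7.64 ± 1.07 (SD, n = 6) and 6.16 ± 0.34 (SD, n = 5), and the fitted log2 difference was -1.47 (SE 0.35, 95% confidence interval -2.21 to -0.74, limma adjusted p = 0.0327). That call was lost when any of 5 single samples was left out: 10B, 22B, 28B or 8B of CHFD (limma adjusted p = 0.0624 to 0.0916) or 32B of CND (limma adjusted p = 0.0521). It was also lost without background correction, where the difference was -0.94 (limma adjusted p = 0.0841), on the authors' normalized values (-0.93, limma adjusted p = 0.086), without the filter (limma adjusted p = 0.071) and with only these 2 groups fitted (limma adjusted p = 0.0831). The difference was -0.91 on chip 1 alone and -2.04 on chip 2 alone, neither past the threshold.

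In IUGR-born rats Usp2 ran from 5.73 to 7.42 in RND, with a median of 6.83, and was 5.56 (21B), 6.65 (25B) and 6.10 (3A) in RHFD. These groups overlapped. The log2 difference was -0.62 (SE 0.40, limma adjusted p = 0.672), and over both birth groups -1.05 (SE 0.27, limma adjusted p = 0.0228). The averaged call was lost without RHFD 21B (limma adjusted p = 0.116) or RHFD 3A (0.0658), without background correction (-0.63, limma adjusted p = 0.071) and on the authors' normalized values (limma adjusted p = 0.0722). The averaged difference was -0.71 on chip 1 (limma adjusted p = 0.263) and -1.39 on chip 2 (limma adjusted p = 0.0461).

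**Figure D2:**
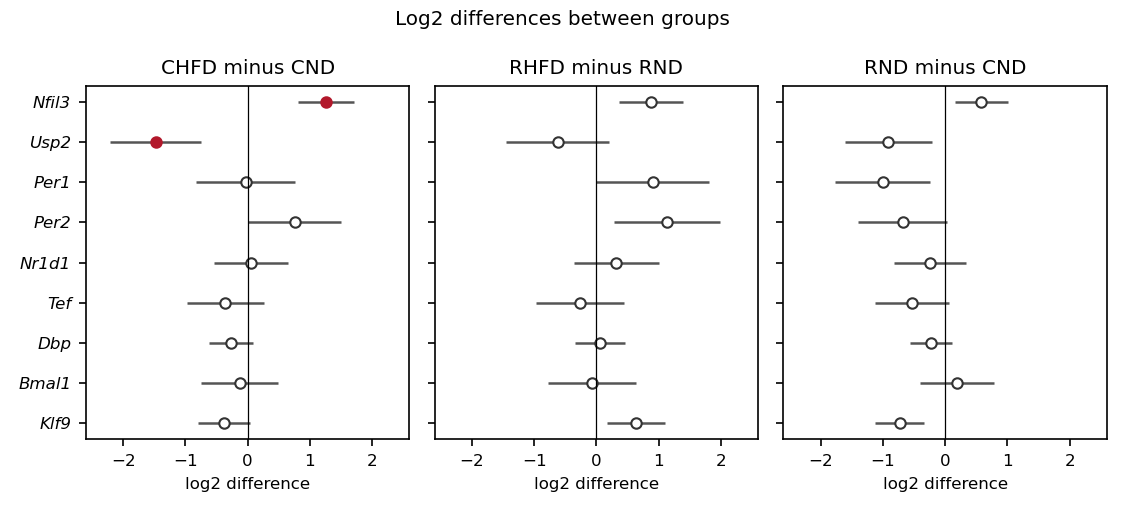
Fitted log2 difference (horizontal axes) of each gene in CHFD minus CND, RHFD minus RND and RND minus CND, with 95% confidence intervals as lines; filled red points have a limma adjusted p under 0.05 over all probes. The 2 filled points are Nfil3 at 1.27 and Usp2 at -1.47, both in CHFD minus CND.

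The period genes Per1 and Per2 encode the proteins of the negative limb of the loop. Per2 ran from 8.28 to 9.83 in CND, with a median of 8.89, and was 9.35 (10B), 11.40 (4A), 9.50 (22B), 9.74 (28B) and 8.95 (8B) in CHFD. The groups overlapped, and sample 4A stood well above the rest. The means were 9.03 ± 0.68 (SD, n = 6) and 9.79 ± 0.95 (SD, n = 5), and the log2 difference was 0.75 (SE 0.36, limma adjusted p = 0.454), which became 0.35 without sample 4A.

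Per2 in RND ran from 7.57 to 8.86, with a median of 8.34, and in RHFD was 9.20 (21B), 9.06 (25B) and 10.17 (3A). All RHFD samples were above all RND samples, a separation that 5.99% of all probes showed in either direction. The means were 8.34 ± 0.46 (SD, n = 6) and 9.48 ± 0.61 (SD, n = 3), a log2 difference of 1.14 (SE 0.41, 95% confidence interval 0.29 to 1.99, limma adjusted p = 0.293). None of the 9 genes passed in this comparison and 3 (Nfil3, Per2 and Klf9) had an unadjusted limma p under 0.05, where 0.883% of all probes passed and 9.56% had such an unadjusted p. Per2 averaged over birth status was 0.94 higher with high-fat diet (SE 0.27, 1.93-fold, limma adjusted p = 0.0488). On chip 1 alone it was 0.93 and on chip 2 alone 0.89. The adjusted p sits at the threshold. The call was lost in 7 of 9 alternatives that kept all samples or all samples of a chip (limma adjusted p = 0.0509 to 0.296), and in 15 of 20 fits that left out 1 sample, with 0.74 (limma adjusted p = 0.072) without CHFD 4A and 0.77 (limma adjusted p = 0.236) without RHFD 3A.

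Per1 ran from 6.91 to 8.69 in CND, with a median of 7.68, and was 7.40 (10B), 9.30 (4A), 7.07 (22B), 7.60 (28B) and 6.65 (8B) in CHFD. The groups overlapped widely and the log2 difference was -0.03 (SE 0.39, 95% confidence interval -0.84 to 0.77). In RND it ran from 5.72 to 7.45, with a median of 6.77, and in RHFD it was 7.02 (21B), 7.39 (25B) and 8.17 (3A). That log2 difference was 0.90 (SE 0.44, limma adjusted p = 0.53). The sample that was highest for Per2 in each high-fat group, CHFD 4A and RHFD 3A, was also highest for Per1, and both carry the letter A.

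Nr1d1, the repressor of Bmal1, was at 8.83 ± 0.67 (SD, n = 6) in CND, 8.89 ± 0.47 (SD, n = 5) in CHFD, 8.58 ± 0.64 (SD, n = 6) in RND and 8.90 ± 0.26 (SD, n = 3) in RHFD. Samples ran from 7.68 (RND 39B) to 9.62 (RND 17B), so the widest gap was within RND and no order of the groups stood out from the spread. The diet difference was 0.06 in controls (95% confidence interval -0.54 to 0.66) and 0.32 in IUGR-born rats (-0.36 to 1.00) on the log2 scale.

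Bmal1, the activator of the loop, was at 5.71 ± 0.45 (SD, n = 6) in CND, 5.59 ± 0.49 (SD, n = 5) in CHFD, 5.90 ± 0.46 (SD, n = 6) in RND and 5.83 ± 0.39 (SD, n = 3) in RHFD. The groups overlapped, with all samples between 4.99 (CHFD 4A) and 6.60 (RND 39B). The diet difference on the log2 scale was -0.13 in controls (95% confidence interval -0.75 to 0.49) and -0.07 in IUGR-born rats (-0.78 to 0.63). The lowest Bmal1 sample was the highest for Per1 and Per2, and the highest Bmal1 sample was the lowest for Per1 and Nr1d1.

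The PAR bZIP activators were dim. Dbp was at 5.47 ± 0.29 (SD, n = 6) in CND, 5.20 ± 0.24 (SD, n = 5) in CHFD, 5.24 ± 0.23 (SD, n = 6) in RND and 5.30 ± 0.16 (SD, n = 3) in RHFD, with all groups overlapping. Its diet difference was -0.26 in controls (95% confidence interval -0.62 to 0.09) and 0.06 in IUGR-born rats (-0.34 to 0.46). Tef was at 5.80 ± 0.76 (SD, n = 6) in CND, where sample 38B reached 7.19, and at 5.27 ± 0.58 (SD, n = 6) in RND, where sample 17B reached 6.31. In CHFD it was 5.50 (10B), 5.46 (4A), 5.58 (22B), 5.19 (28B) and 5.45 (8B), and in RHFD 4.73 (21B), 5.16 (25B) and 5.13 (3A). All RHFD samples of Tef were below all CHFD samples, by a small margin, and 1.41% of all probes separated these groups. The log2 difference, RHFD minus CHFD, was -0.43 (SE 0.35, limma adjusted p = 1.00), less than the 0.51 by which Tef could differ between arrays of 1 sample.

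Klf9, a Krüppel-like factor that responds to glucocorticoids and to the clock, had diet differences of opposite sign in the 2 birth groups, as had the smaller or less certain ones of Per1 and Dbp. It ran from 9.21 to 9.89 in CND, with a median of 9.78, and was 8.79 (10B), 9.56 (4A), 9.66 (22B), 9.28 (28B) and 9.0 (8B) in CHFD. In RND it ran from 8.24 to 9.32, with a median of 9.06, and in RHFD it was 9.68 (21B), 9.19 (25B) and 9.74 (3A). Every pair of groups overlapped. The log2 difference with diet was -0.38 in controls (SE 0.20, limma adjusted p = 0.529) and 0.64 in IUGR-born rats (SE 0.23, limma adjusted p = 0.288). The interaction, the diet difference in IUGR-born rats minus that in controls, was 1.02 (SE 0.31, 95% confidence interval 0.39 to 1.65) and did not pass over all probes (limma adjusted p = 0.972). It was 1.16 on chip 1 and 1.01 on chip 2.

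No interaction passed for any of the 9 genes, and none did for any probe (0%). Unadjusted, 1 of 9 genes (Klf9) had a limma p under 0.05, as did 4.05% of all probes. The interaction of Per1 was 0.94 (95% confidence interval -0.28 to 2.15), of Usp2 0.85 (-0.26 to 1.96) and of Nfil3 -0.39 (-1.08 to 0.29), so differences of more than 2-fold between the birth groups lie inside these intervals.

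In chow-fed rats, 7 of 9 genes had a lower mean level after IUGR and 2 a higher one, where 51.2% of all probes were higher. Of the 9 genes 0 passed, as did 0% of all probes. Without adjustment, 4 of 9 had a limma p under 0.05 (Klf9, Nfil3, Per1 and Usp2), as did 12.1% of all probes. The median log2 difference, RND minus CND, was -0.53 over the 9 genes and 0.01 over all probes, and its median size 0.58 and 0.16. As the genes were chosen from earlier results of these comparisons, nothing is read from these shares. Klf9 was 1.66-fold lower in RND, with a log2 difference of -0.73 (SE 0.19, limma adjusted p = 0.208). Per1 was 2.01-fold lower at -1.01 (SE 0.37, limma adjusted p = 0.291), Usp2 1.88-fold lower at -0.91 (SE 0.34, limma adjusted p = 0.291), and Nfil3 1.5-fold higher at 0.58 (SE 0.21, limma adjusted p = 0.277). No gene of the 9 separated RND from CND without overlap, where 0.755% of all probes did.

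The chow comparison was uneven between the chips. Per1 differed by -0.13 on chip 1 and -1.88 on chip 2, Per2 by 0.22 and -1.59, Usp2 by -0.26 and -1.56, and Tef by 0.00 and -1.06, all on the log2 scale. The values of Klf9 (-0.62 and -0.85) and Nfil3 (0.74 and 0.43) lay closer together. For Per2 in CND the samples of chip 2 were the higher ones, at 9.18 (32B), 9.83 (36B) and 9.80 (38B). On chip 1 they were 8.60 (14A), 8.28 (18A) and 8.46 (20A). For Per2 in RND the samples of chip 2 were the lower ones, at 8.29 (35B), 7.57 (37B) and 8.18 (39B). On chip 1 they were 8.86 (17B), 8.38 (19B) and 8.76 (33B). Per1 in RND was 6.97, 5.84 and 5.72 on chip 2 and 7.45, 6.58 and 7.19 on chip 1, in the same order of samples. Usp2 in RND was 6.87, 6.89 and 6.66 on chip 2 and 6.78, 5.73 and 7.42 on chip 1, again in that order. In RND the chips overlapped for Per1 and Usp2, but in CND they did not overlap for either gene. Per1 in CND was 7.74 (32B), 8.69 (36B) and 7.74 (38B) on chip 2. On chip 1 it was 7.63 (14A), 6.91 (18A) and 7.08 (20A). Usp2 in CND was 7.94, 9.59 and 7.57 on chip 2 and 7.30, 6.69 and 6.74 on chip 1, in the same order of samples. All RND samples carry the letter B, so the letter does not differ between the chips in RND. Within CND or RND alone, chip and sample cannot be told apart, as each sample had 1 array. Title numbers with an array on each chip (4 pairs, in CHFD and RHFD) differed, chip 2 minus chip 1, by -0.37 to -0.10 for Per2. The range was -0.28 to 0.12 for Per1, -0.21 to 0.05 for Usp2 and -0.51 to -0.01 for Tef. What lay behind the uneven values in chow-fed rats was not tested.

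On high-fat diet, IUGR made no difference that passed for any of the 9 genes (RHFD minus CHFD, 0 of 9, with 0 at an unadjusted limma p under 0.05), and 0.00981% of all probes passed, 1 probe, with 1.04% at that unadjusted p. Apart from Tef, the log2 differences lay between -0.30 (Per2) and 0.28 (Klf9). Averaged over diet, 0 of 9 genes passed, and 0.00981% of all probes did. Nfil3 at 0.38 (SE 0.17) and Tef at -0.48 (SE 0.23) on the log2 scale were the 2 genes with an unadjusted limma p under 0.05, which 4.25% of all probes had.

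How the genes varied among samples of the same group does not depend on the comparisons that chose them. After removal of the chip difference and of each group's mean, all 36 pairs of the 9 genes were correlated over 20 samples, and significance was taken from 100000 permutations of samples within their groups (two-sided). Per1 and Per2 moved together, with Pearson's r = 0.91 (permutation p = 3e-05, adjusted over the 36 pairs 0.00108) and Spearman's rho = 0.83 (permutation p = 7e-05, adjusted 0.00252). On chip 1 alone r was 0.90 (permutation p = 0.00253) and on chip 2 alone 0.86 (permutation p = 0.0257), with 4 samples on both chips. Without CHFD 4A and RND 39B, the 2 samples farthest out in Per1, r was 0.88 (permutation p = 4e-05), and leaving out any single sample gave 0.85 to 0.94. Among the other 10192 probes, Per2 had the highest r with Per1.

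**Figure D3:**
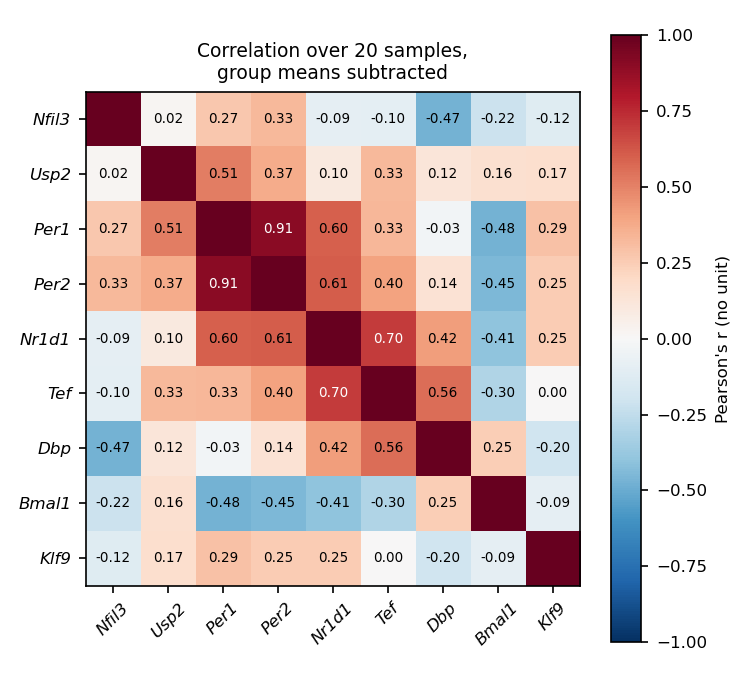
Pearson's r between each pair of the 9 genes over 20 samples, after removal of chip and group means; both axes list the genes and the colour scale runs from -1 to 1 without a unit. Per1 and Per2 (0.91) form the only pair past an adjusted p of 0.05, and Bmal1 has negative values with Per1 (-0.48), Per2 (-0.45) and Nr1d1 (-0.41).

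No other pair passed. Tef and Nr1d1 had r = 0.70 (permutation p = 0.00315, adjusted 0.0567), which fell to 0.47 without CND 38B and RND 17B, the samples with the highest Tef. Nr1d1 had r = 0.60 with Per1 and 0.61 with Per2 (permutation p = 0.00913 and 0.00827, both adjusted 0.0822). Per1 and Usp2 had r = 0.51 (permutation p = 0.0125, adjusted 0.0899) and Dbp and Tef r = 0.56 (permutation p = 0.0153, adjusted 0.0916). Without the 2 samples farthest out in the first-named gene these r were 0.49 (Nr1d1 and Per1), 0.52 (Nr1d1 and Per2), 0.60 (Per1 and Usp2) and 0.45 (Dbp and Tef). Samples far out in the second gene alone were kept. CHFD 4A, the highest deviation of Per1 and Per2, stayed in the pairs of Nr1d1. CND 36B, the highest deviation of Usp2, stayed in that of Per1 and Usp2. Pairs whose members peak at different times in the textbook loop had values of both signs, and none passed. Bmal1 with Per1 had r = -0.48 (permutation p = 0.0591, adjusted 0.27), and -0.67 without the 2 samples farthest out in Bmal1 (permutation p = 0.0101, not adjusted). Bmal1 had r = 0.25 with Dbp, and Nfil3 had r = 0.27 with Per1 and 0.33 with Per2. Nfil3 and Dbp, the repressor and an activator at the D-box, had r = -0.47 (permutation p = 0.0904, adjusted 0.296). Without the 2 samples farthest out in Nfil3 that r was -0.26.

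**Figure D4:**
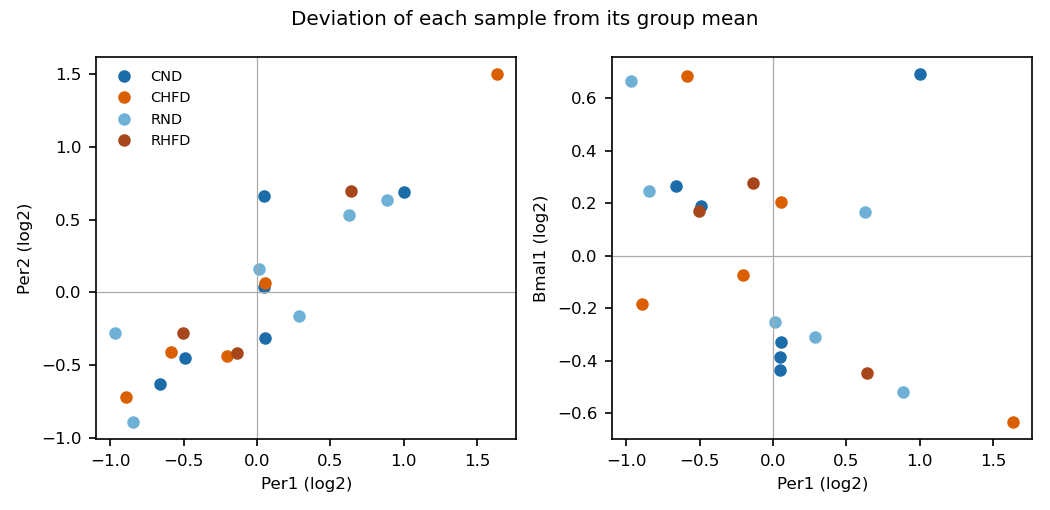
Deviation of each of the 20 samples from its group mean, chip removed, on the log2 scale: Per2 against Per1 (left) and Bmal1 against Per1 (right), coloured by group. Per1 and Per2 rise together with r = 0.91, and CHFD 4A is the sample at the upper right of the left panel and the lower right of the right panel.

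The deviations of the 9 genes were also set against 5 measures of the same samples, namely the number of detected probes and the mean levels of the epithelial, T and natural killer cell, macrophage and dendritic cell, and B and plasma cell markers. None of these 45 relations passed after adjustment. The smallest adjusted p, 0.0514, was shared by 4 relations: Klf9 with epithelial markers (r = 0.71, rho = 0.69, permutation p = 0.0014), Dbp with macrophage and dendritic cell markers (r = 0.61, rho = 0.60, permutation p = 0.00457), Dbp with B and plasma cell markers (r = 0.58, rho = 0.59, permutation p = 0.00416) and Usp2 with T and natural killer cell markers (r = 0.56, rho = 0.63, permutation p = 0.00304). Without the 2 samples farthest out in the measure these r were 0.78, 0.50, 0.50 and 0.53. The adjusted p-values of rho, over all samples, lay between 0.0748 and 0.0786 (permutation test). The next smallest adjusted p, 0.102 (permutation test), was shared by Dbp, Tef and Nr1d1 with the number of detected probes. Their r were -0.62, -0.63 and -0.64, and -0.52, -0.26 and -0.41 without the 2 farthest samples. Usp2 was lower with high-fat diet while the T and natural killer cell markers were higher. The part of the mix of cells in the Usp2 difference was not tested. Per1 and Per2 had r = 0.22 and 0.27 with the T and natural killer cell markers (adjusted p = 0.823 and 0.77, permutation test), and r = 0.61 and 0.67 without the 2 farthest samples. Leaving these out also moved r for Nr1d1 (0.10 to 0.63) and Tef (0.44 to 0.67). With epithelial markers, leaving out their 2 farthest samples moved r for Nr1d1 (0.02 to 0.71), Per1 (0.06 to 0.55) and Per2 (0.09 to 0.52). For Bmal1 it went the other way (0.17 to -0.22).

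Among probes with 1 gene symbol, those most like Dbp and most like Bmal1 in their deviations over the 20 samples were listed as a description. Dbp ran closest to Npl (r = 0.87), Or10ag54b (0.86), Fuz (0.86), Or14a257b (0.84), Nptxr (0.84) and Slit2 (0.84), and most opposite to Timm8a1 (-0.85), Otud6b (-0.82), Tent4a (-0.80) and Ggct (-0.80). Among these, Or10ag54b and Or14a257b are olfactory receptor genes. Bmal1 ran closest to Adh1c (r = 0.83), an alcohol dehydrogenase, Ccn3 (0.83), Acss2 (0.82), Mfsd4a (0.81), Tm4sf1 (0.81) and Rnase4 (0.80), and most opposite to Cflar (-0.89), Lrrk1 (-0.87), Flna (-0.85) and Slc23a1 (-0.84). Adh1c ranked 5 for Bmal1 among all probes, behind probes without a single symbol. No member of the 9 was among the closest probes of either gene. All these values share the same arrays and their brightness differences.

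For the 3 genes past the threshold the same ranking was added after their values were seen. Per2 ran closest to Osgin1 (r = 0.91), with Per1 next, then Ttc22 (0.87), Dusp8 (0.84), a phosphatase of MAP kinases, Ier5 (0.83), an immediate early response gene, Arhgef2 (0.82) and Edn1 (0.81), which encodes endothelin 1. Its most opposite probes were those of Cox7b (-0.85), Atp5pf (-0.83), Apoo (-0.82) and Kif2c (-0.80), of which Cox7b and Atp5pf encode subunits of the respiratory chain and the ATP synthase. Usp2 ran closest to Efna4 (r = 0.89), Ripk4 (0.85), Csnk1d (0.82), Epn3 (0.81), Casp9 (0.80) and Rab11fip1 (0.78), and most opposite to Yeats4 (-0.86), Med6 (-0.84), Mix23 (-0.82) and Mterf4 (-0.82). Csnk1d encodes casein kinase 1 delta, which phosphorylates PER proteins. Nfil3 had looser companions, with Cdkn1c (r = 0.78), Ajuba (0.75), Cxcl11 (0.75), Sult1a1 (0.73), Alkbh6 (0.70) and Clmn (0.70) at the top and Xpr1 (-0.78), Kctd5 (-0.76), Aak1 (-0.75) and Dsn1 (-0.73) at the bottom.

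Further genes of the clock were read from a list of 19, of which 11 were on the array and 7 passed the filter. Clock, Bmal2 and Rorb were not detected on any array and Cry2 on 3. Bhlhe40, which encodes the E-box repressor DEC1, rose with high-fat diet averaged over birth status, by 0.67 on the log2 scale (SE 0.17, limma adjusted p = 0.0193). It stood at 0.62 in controls (limma adjusted p = 0.223) and 0.73 in IUGR-born rats (limma adjusted p = 0.257). The other 6, Timeless, Csnk1d, Cry1, Npas2, Per3 and Btrc, passed in none of the 7 comparisons, and the largest of their diet differences in controls by size was that of Timeless at -0.45 (limma adjusted p = 0.338). With the diet averaged, the median log2 difference was 0.05 over the 7 genes and 0.00 over all probes.

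Of 18 clock-linked output genes, 14 were on the array and 11 were tested, and 0 of 11 passed in any of the 7 comparisons. Ces2c, a carboxylesterase, stood at 0.85 with high-fat diet in controls (SE 0.32, limma adjusted p = 0.261), Pck1, the gluconeogenic enzyme, at -0.64 (limma adjusted p = 0.36) and Wee1, the mitosis kinase, at -0.42 (limma adjusted p = 0.44). For IUGR on chow, Ccnd1 stood at -0.36 (limma adjusted p = 0.3) and Slc9a3, the apical sodium-proton exchanger, at -0.35 (limma adjusted p = 0.347). Por, averaged over birth status, stood at -0.30 with high-fat diet (limma adjusted p = 0.406).

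Because Per1 and Klf9 also respond to glucocorticoids, 19 glucocorticoid-responsive genes were read beside them. On the array were 16, of which 14 were tested, and 0 of 14 passed in any of the 7 comparisons. Hsd11b2, which inactivates glucocorticoids, stood at -0.56 with high-fat diet averaged over birth status (SE 0.17, limma adjusted p = 0.0704). Nfkbia stood at 0.71 with high-fat diet in controls (SE 0.23, limma adjusted p = 0.159) and Mt1, a metallothionein, at 0.88 in IUGR-born rats (SE 0.36, limma adjusted p = 0.385). For IUGR on chow, Sgk1 stood at -0.93 (SE 0.35, limma adjusted p = 0.293) and Cebpb at 0.33 (limma adjusted p = 0.34). Fkbp5 stood at -0.52 for IUGR averaged over diet (SE 0.22, limma adjusted p = 1.00). The receptor gene Nr3c1 was not detected on any array. The median log2 difference of the 14 genes was 0.11 for high-fat diet in controls, 0.15 in IUGR-born rats and -0.21 for IUGR on chow, where the median over all probes was 0.00, 0.00 and 0.01.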

How the data were processed

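RNA of colonic epithelial cells was hybridized to Illumina rat arrays, and the arrays were read with GenomeStudio, per the submitters' processing notes; its version and settings were not given in the sources used here. The deposited values used here are bead-averaged probe intensity, not normalized, and the detection p-value of each probe, per the file headers. A second deposited table holds the intensity of the same arrays after quantile normalization by the authors, as seen from the values, and served as an alternative.

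The log2 levels come from neqc in limma 3.58.1 (R 4.3.3), which corrects background with negative controls inferred from detection p, adds an offset of 16 and applies quantile normalization. Of 22523 probes, 10193 with detection p under 0.05 on at least 6 of 24 arrays were tested in limma, with group and chip as fixed terms, title number as a random block (correlation 0.812), 7 comparisons and Benjamini-Hochberg adjustment within each. Levels per sample average the arrays of a title number without removing chip. The number of arrays limits the precision. Correlations used chip-removed deviations from group means and permutation within groups (scipy 1.17.1, numpy 2.4.6). Both programs were tested on simulated data.

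The 10 genes, the lists and the tests were chosen with earlier results of these data known. All members were named. Of each further list, genes past the threshold and up to 6 with the smallest p were named, and for Dbp and Bmal1 the 6 highest and 4 lowest correlated probes with 1 symbol. The same ranking for Nfil3, Per2 and Usp2 and the relations with 5 sample measures were added after values were seen. Symbols come from the platform annotation, updated through RefSeq.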

Additional observations from a re-analysis of the deposited data

How the results depend on the processing

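The calls of single genes were few and several rested on the processing, while no value that passed reversed its sign under any alternative run. In CHFD against CND, 2 genes passed, and 1 passed without background correction, with median scaling, without the filter, on the authors' normalized values, on chip 1 alone or with only the 2 groups fitted, against 0 on chip 2 alone and 1 to 2 when single samples were left out. In that fit of 2 groups the block correlation could not be estimated and that of all arrays was used. In RHFD against RND, 0 genes passed, and 2 when only these groups were fitted (Nfil3 with limma adjusted p = 0.0219 and Per2 with 0.0357). For the diet averaged over birth status, 3 passed, and 1 without background correction, on the authors' normalized values or on chip 2 alone, with 1 to 3 when single samples were left out. The counts for IUGR and for the interaction were 0 under every alternative run. Nfil3 averaged over birth status passed in all settings but chip 2 alone (0.91, limma adjusted p = 0.059), and Per2, with all samples kept, passed elsewhere only with no chip term (limma adjusted p = 0.0376) and on chip 1 alone (0.0436). Correlated pairs numbered 1, with 2 on the authors' normalized values, without background correction or with the letter also removed, 0 on chip 1 alone or chip 2 alone, and 1 to 4 when single samples were left out. On single chips Per1 and Per2 had adjusted p = 0.0911 and 0.463 over the 36 pairs. Median scaling shifted the median of all probes to -0.10 in the diet comparisons, so diet differences under it are relative to that. Signals near background limit Bmal1, Dbp and Tef. No paired analysis was possible because the groups share no title numbers.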
